A study of Mus musculus with 10 samples.

Results

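The kinesin genes of the mouse were read in 10 ovaries, which were assigned to the Control, Aged and Aged+CF groups. The members were chosen by gene symbol, as every gene of the count table named Kif followed by a number with or without a letter ending. The rule matched 39 of 55487 genes, namely 38 kinesin genes and Kif16bos. The latter is annotated as an antisense RNA, lies beside Kif16b on the opposite strand without overlap, and encodes no motor. By the known work of their proteins, the 38 kinesins were divided into 12 mitotic kinesins, 13 transport kinesins, 6 kinesins of the cilium and centriole, and 7 of other function. In 36 of the 39 genes the counts were high enough to be tested, together with 18956 genes in all. Kif2b had no count in any ovary, and Kif12 and Kif16bos had too few. The motor proteins whose symbols lie outside this pattern (Kifc genes, Cenpe and Stard9) were not members and are described near the end.

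The Control group comprised 4 ovaries of mice aged 8 weeks, whereas the Aged and Aged+CF groups each comprised 3 ovaries of mice aged 11 months by the labels. The methods of the study give a lower age at purchase for the old mice. Aged+CF mice received 200 μL of CEFFE, the cell-free protein extract of adipose tissue, at 3 μg/μL by tail vein for some weeks, and by those methods the other mice received saline. All mice, of C57BL/6J background, were primed with 10 IU of PMSG 48 h before collection, a hormone that makes follicles grow. Ovaries are named below by group and by the number in their titles (Control 31 to 34, Aged 31, 33 and 34, Aged+CF 30, 32 and 34).

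Kinesins are motor proteins that turn the energy of ATP into movement along microtubules or into shortening of microtubule ends. Mitotic kinesins build the spindle, move and align chromosomes and complete the separation of daughter cells, and their mRNAs are made mainly late in the cell cycle. Transport kinesins carry vesicles, mitochondria and endosomes in cells whether or not they divide. In the ovary, the cells that divide most are the granulosa cells of growing follicles, and oocytes use several of the same motors in meiosis.

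Between 15761789 and 21318254 reads were counted on genes per ovary. Levels are given as CPM, the normalized read count after TMM scaling of the libraries, for comparisons of a gene between ovaries, and as the deposited FPKM, which also divides by gene length, for comparisons between genes. The fold changes are on the log2 scale with the standard error, and the adjusted p is that of edgeR's quasi-likelihood F test over all genes tested. A gene counted as called where the fold change reached 1.5 with an adjusted p under 0.05. Markers of granulosa cells, oocytes, theca and luteal cells were detected in every group, as an ovary would give. The summed CPM of 10 oviduct and multiciliated cell markers was 425.3 in Control 33 and 326.1 in Aged 34, against 8.889 to 41.51 in the other 8 ovaries. The summed CPM of 12 oocyte markers was only 13.45 in Aged 34, against 91.22 and 102.2 in the other Aged ovaries. Values without these ovaries are given where they touch a result.

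Transport kinesins made up most of the kinesin mRNA of the ovary. Per unit of length, the highest mean levels over all ovaries were those of Kif5b (24.1 FPKM), the ubiquitous conventional kinesin, Kif1c (16.6 FPKM), a carrier of Golgi and integrin vesicles, and Kif3b (11.7 FPKM), a subunit of the kinesin-II trimer. They were followed by Kif26a (10.2 FPKM), a kinesin without motor activity. The highest mitotic kinesin was Kif11 with 4.01 FPKM, and the lowest detected was Kif18a with 0.451 FPKM.

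Summed over its 12 genes, the mitotic set gave 34.52, 43.82, 34.38 and 38.17 FPKM in the Control ovaries, 14.79, 13.19 and 5.254 FPKM in the Aged ovaries, and 24.88, 16.56 and 26.64 FPKM in the Aged+CF ovaries. The 3 groups did not overlap in this sum, with Control highest and Aged lowest. The 13 transport genes summed to 89.42 ± 5.53 FPKM (SD, n = 4) in Control, 93.93 ± 5.90 (SD, n = 3) in Aged and 99.25 ± 4.76 (SD, n = 3) in Aged+CF. In FPKM the Aged ovaries overlapped with both other groups, whereas every Aged+CF ovary was above every Control ovary. In CPM the transport sum was 923.7 to 1035 in Control, 1098 to 1162 in Aged and 1101 to 1235 in Aged+CF. By that scale, every ovary of both old groups was above every Control ovary, and the old groups overlapped. Mitotic kinesins accounted for 24.2 ± 3.60% (SD, n = 4) of all kinesin FPKM in Control, 8.14 ± 3.41% (SD, n = 3) in Aged and 15.7 ± 3.75% (SD, n = 3) in Aged+CF. Within the mitotic set, Kif11 made up 15.7 ± 0.739% (SD, n = 4), 14.0 ± 2.19% (SD, n = 3) and 16.9 ± 0.681% (SD, n = 3) of the mitotic FPKM in the same order of groups.

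**Figure D1:**
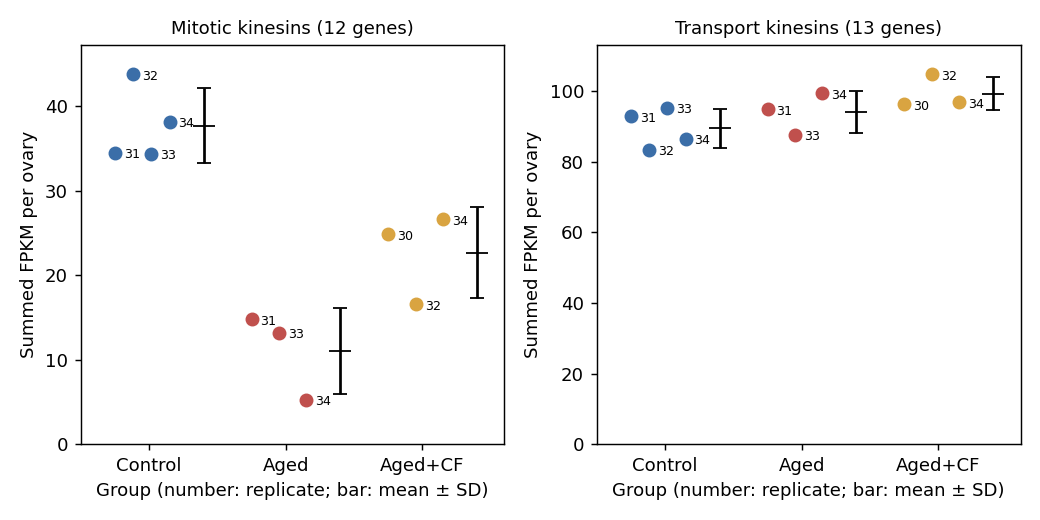
Summed FPKM of the 12 mitotic kinesins (left) and the 13 transport kinesins (right) in each ovary, with the mean ± SD of each group beside the points and the replicate number at each point. The mitotic sum is 34.38 to 43.82 in Control, 5.254 to 14.79 in Aged and 16.56 to 26.64 in Aged+CF, whereas the transport sum lies between 83.29 and 104.7 in all ovaries.

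The first comparison asked which kinesins differ between old and young ovaries. Compared to that in the Control group, 14 kinesins were called lower in the Aged group (the background was 6.06% of all genes tested), and 0 were called higher (background 5.0%). By edgeR at unadjusted p the same counts of 14 lower and 0 higher were obtained, and by DESeq2 at adjusted p also 14 lower. The 14 comprised all 11 mitotic kinesins tested, together with Kif17, Kif7 and Kif24. Every mitotic kinesin tested was lower in each Aged ovary than in each Control ovary, a separation found in the lower direction for 15.6% of all genes. The median log2 fold change was -1.66 over the mitotic kinesins (from -2.02 to -1.33) and 0.08 over the transport kinesins, beside 0.00 over all genes tested. In RNA of whole ovaries, fewer dividing cells and less of these mRNAs per cell cannot be told apart.

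Kif11 (Eg5), the motor that slides antiparallel microtubules apart to give the spindle its poles, was at 40.3, 51.1, 42.1 and 48.5 CPM in Control, 19.3, 17.6 and 4.85 CPM in Aged, and 33.9, 21.4 and 35.6 CPM in Aged+CF. The Aged ovaries were all below the others, and Aged 34 was lowest. The log2 fold change of Kif11 in Aged vs Control was -1.71 ± 0.40 (SE) with an adjusted p of 0.0206. Kif15, the kinesin-12 that helps Kif11 to hold the poles apart, was at 22.6, 25.2, 20.9 and 21.3 CPM in Control, 9.25, 8.54 and 3.64 CPM in Aged, and 16.7, 10.1 and 14.1 CPM in Aged+CF. It fell by 1.66 ± 0.30 (SE) on the log2 scale in Aged vs Control (adjusted p = 0.00969). Both motors of spindle bipolarity thus showed the same order of groups, with no overlap among the 3.

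The chromokinesins, which bind chromosome arms and push them toward the spindle equator, were also lower in the Aged group. Kif22 (Kid) was at 31.8, 45.2, 31.5 and 35.7 CPM in Control, 15.3, 17.8 and 5.84 CPM in Aged, and 20.6, 17.7 and 26.7 CPM in Aged+CF. Its log2 fold change in Aged vs Control was -1.48 ± 0.33 (SE, adjusted p = 0.0191), and Aged+CF 32 lay within the Aged range. Kif4, which also organizes the central spindle, was at 25, 34.9, 27.0 and 32 CPM in Control, 10.9, 9.74 and 3.47 CPM in Aged, and 17.0, 10.7 and 20.3 CPM in Aged+CF. The fall of Kif4 was 1.89 ± 0.37 (SE) on the log2 scale (adjusted p = 0.0119). As for Kif22, Aged+CF 32 fell among the Aged ovaries.

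The kinesins that shorten microtubules or damp their movements in chromosome alignment belong to the kinesin-8 and kinesin-13 families. Kif18a, which damps the oscillation of chromosomes at microtubule plus ends, was at 6.65, 7.29, 6.95 and 7.0 CPM in Control, 2.09, 4.16 and 2.1 CPM in Aged, and 6.31, 4.14 and 6.42 CPM in Aged+CF. It was the least abundant mitotic kinesin detected and had the smallest fall of the set, of 1.33 ± 0.28 (SE) on the log2 scale (adjusted p = 0.0151). Kif18b, a partner of Kif2c on astral microtubules, was at 15.5, 20.1, 13.7 and 15.4 CPM in Control, 7.81, 5.86 and 1.54 CPM in Aged, and 9.63, 7.01 and 10.3 CPM in Aged+CF. Kif18b had the highest adjusted p of the set (0.0290 at a log2 fold change of -1.68 ± 0.43 SE). Kif2c (MCAK), the depolymerase that corrects faulty attachments of kinetochores, was at 20.7, 28.0, 21.1 and 23.9 CPM in Control, 8.47, 12.6 and 4.19 CPM in Aged, and 17.3, 9.36 and 19.4 CPM in Aged+CF. The log2 fold change of Kif2c was -1.48 ± 0.36 (SE, adjusted p = 0.0235). Kif2b, its relative, was not detected, and the floor of 3 counts corresponds to 0.141 to 0.212 CPM in these libraries.

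The kinesins of cytokinesis act at the midzone, where the daughter cells part. Kif23 (MKLP1), a subunit of centralspindlin, was at 31.2, 39.4, 27.8 and 32.4 CPM in Control, 12.3, 12.3 and 3.91 CPM in Aged, and 17.7, 16.3 and 22.8 CPM in Aged+CF. The 3 groups were fully separated for Kif23, which fell by 1.79 ± 0.35 (SE) on the log2 scale in Aged vs Control (adjusted p = 0.0120). Kif20a (MKLP2), which brings the chromosomal passenger complex to the midzone, was at 24.5, 32.8, 24.4 and 26.7 CPM in Control, 12.9, 12.7 and 4.14 CPM in Aged, and 19.7, 11.9 and 20.6 CPM in Aged+CF. Its fall was 1.46 ± 0.36 (SE) on the log2 scale (adjusted p = 0.0261). Kif20b (MPP1), which acts late in cytokinesis, was at 22.3, 22.6, 20.3 and 21.8 CPM in Control, 10.4, 8.75 and 6.12 CPM in Aged, and 18.1, 13.3 and 16.3 CPM in Aged+CF. Kif20b had the smallest standard error of the set and the lowest adjusted p of all kinesins (0.00497, log2 fold change -1.37 ± 0.19 SE). Kif14, which acts with citron kinase and PRC1, was at 13.9, 16.6, 14.8 and 15.3 CPM in Control, 5.73, 4.30 and 1.21 CPM in Aged, and 10.1, 6.66 and 9.14 CPM in Aged+CF. With a log2 fold change of -2.02 ± 0.41 (SE, adjusted p = 0.0134), it showed the largest fall among the kinesins tested.

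**Figure D2:**
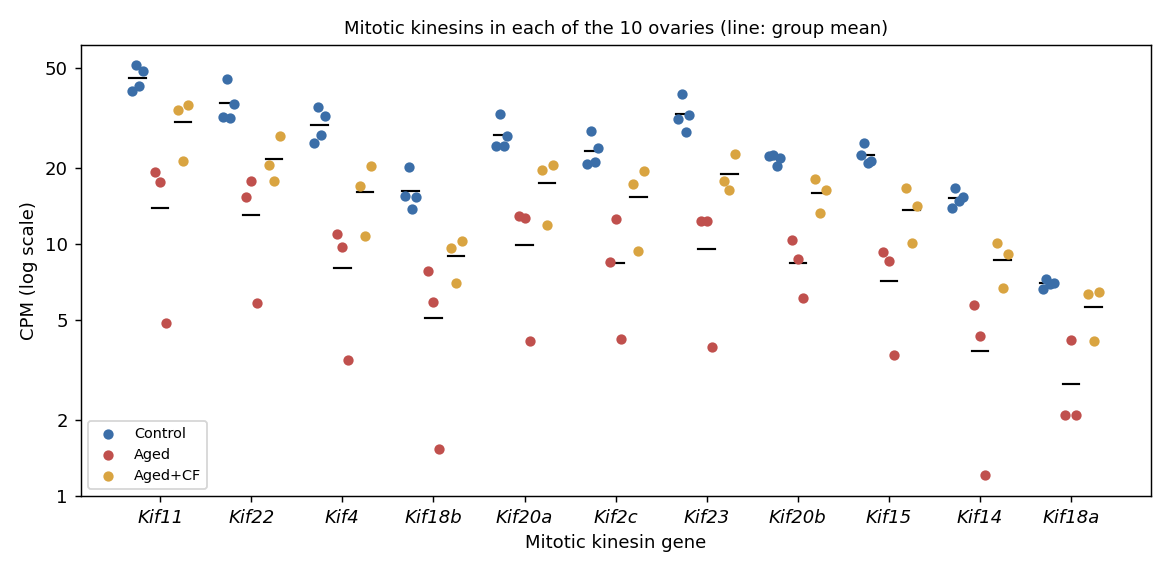
CPM on a log scale of the 11 detected mitotic kinesins in each ovary, in order of mean FPKM, with a line at the mean of each group. For every gene all Aged ovaries lie below all Control ovaries, the Aged+CF ovaries lie below all Control ovaries, and Aged 34 has the lowest point of all genes but Kif18a, where Aged 31 (2.09 CPM) and Aged 34 (2.1 CPM) are level.

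Aged 34 gave the lowest value of 10 of these 11 genes. Without it, all 11 mitotic kinesins were still called lower in Aged vs Control, with a median log2 fold change of -1.20 and adjusted p-values from 0.00247 to 0.0243. The calls were more sensitive to the Control ovaries. Without Control 32, 6 of the 11 were called (Kif11, Kif22, Kif18b, Kif20a and Kif2c had adjusted p-values from 0.0534 to 0.0741), and without Control 34, 7 were called (Kif11, Kif18b, Kif20a and Kif2c from 0.0518 to 0.0623). The fold changes themselves hardly moved, with medians of -1.56 and -1.68. Several of these genes share bases with neighbors in GENCODE M21, and strand use in counting was not given in the sources used here. Kif18b overlaps the non-coding Gm26668 over 19596 bases and Kif20a the coding gene Cdc23 over 2327 bases, in both cases on the opposite strand, and Cdc23 itself had a log2 fold change of -0.16 (adjusted p = 0.201). A processed pseudogene of 946 bases lies inside Kif11 on the same strand. Kif22 overlaps the non-coding Gm31749 over 3824 bases and Kif4 the coding gene Pdzd11 over 832 bases, both on the opposite strand. Kif14, Kif15, Kif18a and Kif20b share from 11 to 578 bases with single neighbors.

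The promoters of the mitotic kinesins were examined because these genes moved together. Promoter windows of 300 bases from RefSeq (GRCm38.p6), from 250 bases before the start of the gene to 50 after it, were found for 31 of the 38 kinesins, including 11 mitotic kinesins (Kif2b among them, Kif20a not). The cell cycle homology region (CHR), spelled TTTGAA and bound in many late cell-cycle promoters by the complex that represses them in resting cells, was searched on both strands. The CHR letters were in 9 of the 11 mitotic windows (81.8%), in 1 of 12 windows of 10 transport genes (8.33%) and in 17.9% of 32851 windows of all genes. The letters CCAAT, the box bound by NF-Y, were in 7 of the 11 mitotic windows (63.6%), in 4 of 12 transport windows (33.3%) and in 37.4% of all. Within 30 bases of the RefSeq start, a limit set after the matches were seen, the CHR letters were in 7 mitotic windows, in 0 transport windows, in 1 window of the kinesins of other function (Kif26b) and in 2.9% of all windows. The RefSeq start is not always that of GENCODE M21. For 6 of these 7 mitotic genes they lie 0 to 51 bases apart, whereas for Kif4 the RefSeq start lies 328 bases inside the GENCODE gene. Those of Kif2c and Kif14 lie 3867 and 1505 bases inside. A match is only a run of letters and no measured binding site, and the CHR and CCAAT letters did not overlap in the stretches shown.

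The stretches from 60 bases before the RefSeq start to 25 bases from the start on are given for these 7 mitotic kinesins, to show how near to the start the letters lie. Those of Kif18a (mitotic, no match) and Kif1c (transport) are shown for contrast. All are written 5′ to 3′ on the strand of the gene, with capitals for CHR or CCAAT letters on either strand (TTCAAA and ATTGG being the same letters read from the other strand).
Kif11, chr19:37376322-37376406, plus strand: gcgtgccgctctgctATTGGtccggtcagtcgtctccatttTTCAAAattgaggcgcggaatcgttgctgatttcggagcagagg
Kif15, chr9:122951021-122951105, plus strand: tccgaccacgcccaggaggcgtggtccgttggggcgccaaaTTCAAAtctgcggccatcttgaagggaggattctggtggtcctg
Kif22, chr7:127042396-127042480, minus strand: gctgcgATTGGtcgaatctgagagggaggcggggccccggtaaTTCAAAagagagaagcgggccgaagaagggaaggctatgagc
Kif4, chrX:100626005-100626089, plus strand: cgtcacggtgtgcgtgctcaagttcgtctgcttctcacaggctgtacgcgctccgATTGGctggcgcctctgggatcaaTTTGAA
Kif18b, chr11:102925100-102925184, minus strand: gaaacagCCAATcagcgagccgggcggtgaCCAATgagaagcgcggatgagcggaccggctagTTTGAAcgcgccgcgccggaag
Kif23, chr9:61946775-61946859, minus strand: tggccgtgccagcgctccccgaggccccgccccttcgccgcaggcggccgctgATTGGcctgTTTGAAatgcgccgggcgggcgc
Kif20b, chr19:34922298-34922382, plus strand: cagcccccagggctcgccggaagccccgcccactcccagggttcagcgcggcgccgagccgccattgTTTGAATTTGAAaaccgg
Kif18a, chr2:109280678-109280762, plus strand: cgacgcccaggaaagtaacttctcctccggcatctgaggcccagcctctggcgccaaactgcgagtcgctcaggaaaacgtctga
Kif1c, chr11:70700488-70700572, plus strand: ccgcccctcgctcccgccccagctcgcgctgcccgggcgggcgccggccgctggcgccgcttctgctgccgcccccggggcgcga

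In Kif11 and Kif15 the CHR letters began 19 bases before the start, and in Kif20b a pair of copies stood end to end after it. Kif14 and Kif2c held the letters farther upstream, from 228 and 103 bases before the start. Kif18a, which had the smallest fall, held none in its window, although its fall was close to that of Kif20b, which holds 2. Whether the letters have a part in the change was not tested.

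The transport kinesins formed the contrast, since 12 of the 13 were not called in Aged vs Control. Kif5b was at 234, 208, 209 and 202 CPM in Control, 260, 298 and 292 CPM in Aged, and 246, 284 and 240 CPM in Aged+CF. It was higher in every Aged ovary than in every Control ovary, by a log2 fold change of 0.41 ± 0.10 (SE, adjusted p = 0.0221) that is under the fold limit of 1.5. The adjusted p of Kif5b was 0.0553 to 0.0672 without Control 32, 33 or 34. Kif1c was at 184, 186, 194 and 193 CPM in Control, 213, 243 and 213 CPM in Aged, and 193, 245 and 207 CPM in Aged+CF, with a log2 fold change in Aged vs Control of 0.23 ± 0.10 (SE, adjusted p = 0.133). Kif3b was at 65.1, 47.7, 61.3 and 52.2 CPM in Control, 69.0, 79.6 and 70.8 CPM in Aged, and 67.1, 76.2 and 71.8 CPM in Aged+CF, with a log2 fold change of 0.37 ± 0.12 (SE, adjusted p = 0.0601).

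Kif3a, the partner of Kif3b in the kinesin-II trimer of intraflagellar transport, went the other way. Kif3a was at 35.3 to 40.6 CPM in Control and 21.0 to 30.4 CPM in Aged, with a log2 fold change of -0.52 ± 0.14 (SE, adjusted p = 0.0352) that is also under the fold limit. Without Aged 34 it was -0.59 ± 0.15 (SE, adjusted p = 0.0228 by edgeR), which passed the limit. Without both Control 33 and Aged 34, Kif3a did not pass at adjusted or unadjusted p with the fold limit. Kif3c, which can replace Kif3b beside Kif3a, had a log2 fold change of 0.47 ± 0.17 (SE, adjusted p = 0.0876). The transport kinesin that was called was Kif17, a homodimeric kinesin-2 of dendrites and cilia. Kif17 was at 5.89, 7.92, 7.40 and 7.10 CPM in Control, 3.88, 3.95 and 2.81 CPM in Aged, and 4.07, 4.02 and 4.97 CPM in Aged+CF. Both old groups were below all Control ovaries, and Kif17 fell by 1.0 ± 0.20 (SE) on the log2 scale in Aged vs Control (adjusted p = 0.0126). Its reads cannot be fully told from those of Sh2d5, which shares 10898 bases with it on the same strand and had a log2 fold change of 0.78 (adjusted p = 0.475).

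The neuronal conventional kinesins depended on a single ovary. Kif5a was at 5.96 and 4.16 CPM in Aged 31 and 33 but 17.1 CPM in Aged 34, against 8.67 to 9.28 CPM in Control. Kif5c followed the same pattern, with 9.19, 8.18 and 26.9 CPM in Aged and 12.9 to 16.4 CPM in Control. With all ovaries their log2 fold changes were 0.01 and 0.04, whereas without Aged 34 they were -0.79 (adjusted p = 0.0250) and -0.69 (adjusted p = 0.0431). Without both Control 33 and Aged 34, Kif5a and Kif5c passed at unadjusted p but were not called at adjusted p by edgeR. Of the 10 neuron markers, Syt1 was highest in Aged 34 (22.4 CPM, against 5.89 to 12.1 CPM elsewhere). Tubb3 (37.9 CPM), Prph (2.98 CPM) and Stmn2 (2.65 CPM) were also highest there. Uchl1 (32.9 CPM) and Th (0 CPM) were lowest there, and Dbh was at 0 in all Aged ovaries. Snap25, Gap43 and Elavl4 in Aged 34 lay within the range of the other ovaries. The summed level of the list in Aged 34 was 99.8 CPM, within the range of 81.18 to 165.6 CPM. The part of these cells was not tested.

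The cilium and centriole kinesins split into those of the primary cilium or centriole and those of motile cilia. Kif7, the kinesin-4 at the cilium tip in Hedgehog signaling, was at 28.0, 28.7, 27.2 and 30 CPM in Control, 18.4, 11.2 and 20.5 CPM in Aged, and 24.9, 21.5 and 24.1 CPM in Aged+CF. It was lowest in the Aged group, intermediate in the Aged+CF group and fell by 0.77 ± 0.18 (SE) on the log2 scale in Aged vs Control (adjusted p = 0.0224). Kif24, a depolymerase of the centriole that holds back cilium formation, was at 9.57, 7.61, 9.33 and 8.00 CPM in Control, 6.14, 3.74 and 3.69 CPM in Aged, and 7.11, 4.94 and 6.37 CPM in Aged+CF. The fall of Kif24 was 0.93 ± 0.23 (SE) on the log2 scale (adjusted p = 0.0253). The calls of Kif7 and Kif24 were both lost without Control 34 (adjusted p = 0.0594 and 0.0558 by edgeR). The call of Kif7 was also lost without Control 32 (adjusted p = 0.0559) and, by the fold limit, without Aged 33. That of Kif24 was lost without Control 31, Control 33, Aged 33 or Aged 34 as well (adjusted p = 0.0504 to 0.0797). With only the Control and Aged ovaries in the fit, the adjusted p was 0.0531 for Kif7, 0.0512 for Kif24 and 0.0635 for Kif18b.

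The motile cilium kinesins Kif9, Kif19a, Kif27 and Kif6 were not called, and they were highest in the ovaries with oviduct markers. Kif19a, a depolymerase that sets the length of motile cilia, was at 12 CPM in Control 33 and 9.10 CPM in Aged 34, against 0.875 to 2.87 CPM in the other 8 ovaries. Kif9, of the ciliary axoneme, was at 8.47 and 8.27 CPM in these ovaries and at 1.62 to 3.39 CPM in the others. Foxj1, the main regulator of motile cilia, was at 36.7 CPM in Control 33, 32.3 CPM in Aged 34 and 0.119 to 1.91 CPM elsewhere, whereas Mcidas was at 0 in both. Without Aged 34, Kif6 had a log2 fold change of -2.0 ± 0.55 (SE, adjusted p = 0.0295) in Aged vs Control, compared to -0.68 ± 0.63 (SE) with all ovaries. Without both Control 33 and Aged 34, Kif6 was called lower, and the lowest log2 fold change of the cilium and centriole kinesins was -1.57. The mitotic kinesins were called lower in Aged vs Control in all 11 cases without both ovaries, with a median log2 fold change of -1.27.

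**Figure D3:**
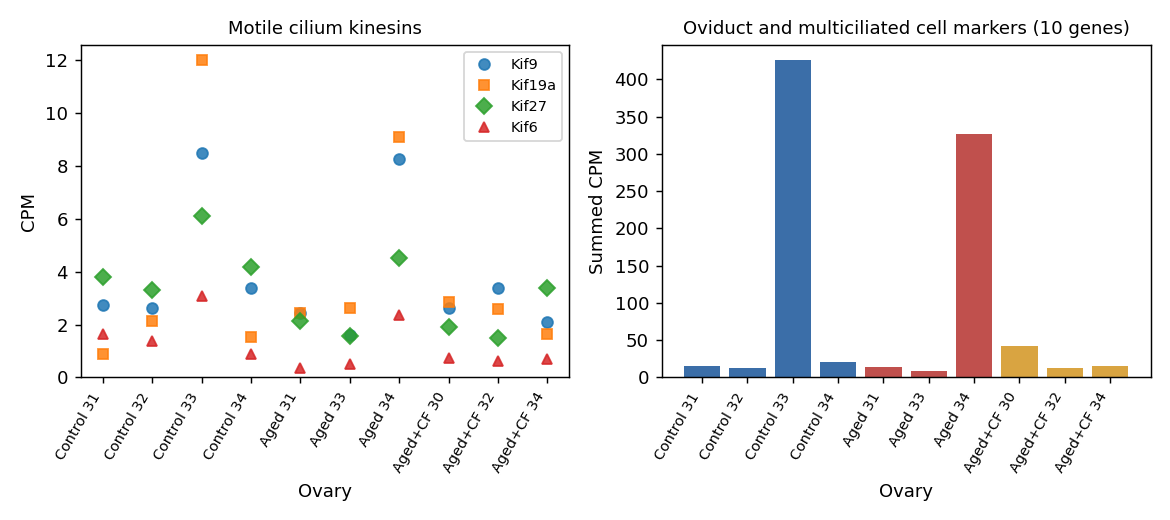
CPM of 4 motile cilium kinesins (left, one symbol per gene) and the summed CPM of 10 oviduct and multiciliated cell markers (right, bars) in each ovary. Both are highest in Control 33 and Aged 34, where Kif19a reaches 12 and 9.10 CPM and the markers 425.3 and 326.1 CPM.

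Of the kinesins of other function, none was called in Aged vs Control by edgeR with all ovaries, at adjusted or unadjusted p, or by DESeq2. Kif26a, which lacks motor activity, varied most: it was at 94.2, 48.4, 74.2 and 47.9 CPM in Control, 128, 197 and 16.5 CPM in Aged, and 48.2, 54.6 and 42.0 CPM in Aged+CF. Its log2 fold change in Aged vs Control was 0.78 ± 0.59 (SE, adjusted p = 0.406) with all ovaries and 1.33 ± 0.28 (SE, adjusted p = 0.0115) without Aged 34. All 7 luteal markers were called higher in the Aged group, and their summed CPM was 26880 and 36800 in Aged 31 and 33, where Kif26a was highest. The sum in Aged 34 (15690) was above all Control ovaries (6608 to 11890) although Kif26a was lowest there, and Aged+CF 32 had a sum of 22300 with Kif26a at 54.6 CPM. Their part in the level of Kif26a was not tested. Kif2a, a depolymerase of spindle poles and neurons that is closely related to Kif2c, was at 41.2 to 47.3 CPM in Control and 34.4 to 42.2 CPM in Aged, with a log2 fold change of -0.18 ± 0.10 (SE, adjusted p = 0.255). Kif21a, Kif21b and Kif26b had log2 fold changes from -0.52 to -0.01. Kif28 was at 0 in 3 ovaries and at 22 to 27 counts in the other 7, and it shares 378 bases with Ahctf1 on the same strand, so its counts are uncertain.

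**Figure D4:**
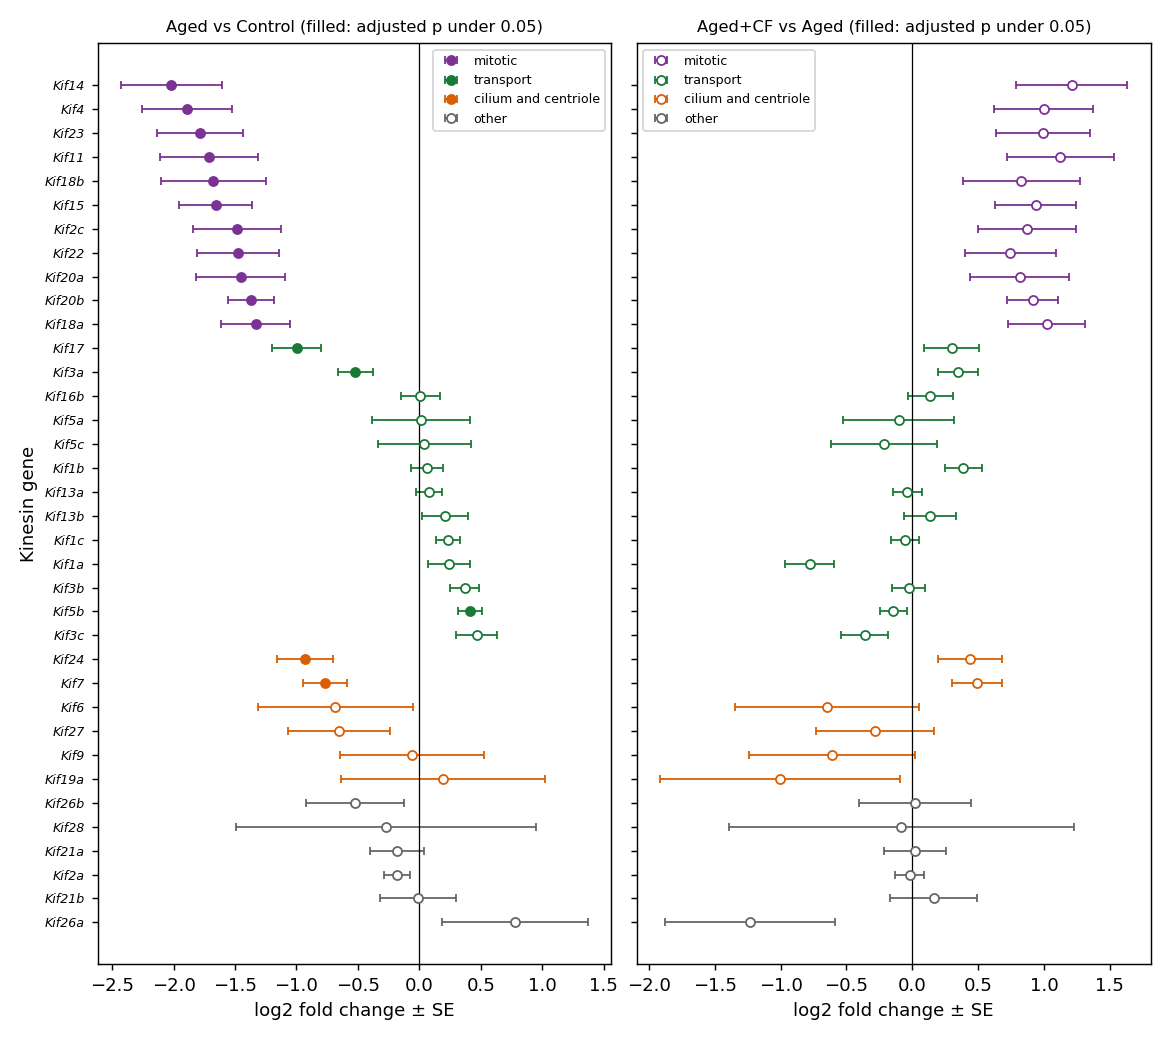
Log2 fold change ± SE of the 36 kinesin genes tested in Aged vs Control (left) and Aged+CF vs Aged (right), colored by class, with filled points where edgeR's adjusted p was under 0.05. The 11 mitotic kinesins lie between -2.02 and -1.33 on the left and between 0.74 and 1.21 on the right, where no point is filled.

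The second comparison asked whether kinesins differ between old ovaries with and without CEFFE. At adjusted p, 0 kinesins were called higher or lower by edgeR (the background was 0.0% higher and 0.00528% lower, a single gene of all tested). By DESeq2's Wald test at adjusted p, Kif20b (0.0019) and Kif18a (0.0251) were higher and Kif1a (0.00952) was lower. At a fold of 1.5 and unadjusted p, 8 kinesins were higher in the Aged+CF group by edgeR (background 3.91%), all of them mitotic, and Kif1a was lower (background 4.05%). All 11 mitotic kinesins tested had positive log2 fold changes, with a median of 0.94, beside -0.04 over the transport kinesins and -0.02 over all genes. The adjusted p-values of the mitotic kinesins were 0.155 to 0.379, so none of them passed the threshold. The Aged ovaries enter both this comparison and the first, so the opposite signs of the 2 comparisons are not independent.

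Kif20b had the lowest unadjusted p of the family, 0.000876 in edgeR's test, with a log2 fold change of 0.92 ± 0.20 (SE). Among the mitotic kinesins the largest difference was that of Kif14, with a log2 fold change of 1.21 ± 0.42 (SE, unadjusted p = 0.0164 in edgeR's test). Kif11 (1.13 ± 0.41 SE), Kif18a (1.02 ± 0.29 SE), Kif4 (1.0 ± 0.38 SE), Kif23 (1.0 ± 0.36 SE), Kif15 (0.94 ± 0.31 SE) and Kif2c (0.87 ± 0.37 SE) were the others at unadjusted p. Kif18b, Kif20a and Kif22 had log2 fold changes of 0.83, 0.82 and 0.74 with unadjusted p-values of 0.0921, 0.0550 and 0.0576. In 5 of the 11 (Kif11, Kif23, Kif20b, Kif15 and Kif14) every Aged+CF ovary was above every Aged ovary, a separation found in this direction for 10.2% of all genes. Aged+CF 32 was the lowest Aged+CF ovary for all 11, and it lay within the Aged range for the other 6.

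The size of these differences depended on single ovaries. Without Aged 34 the median log2 fold change of the mitotic kinesins was 0.60 in place of 0.94, with 7 of 11 at unadjusted p and Kif20b at an adjusted p of 0.0467. Without both Control 33 and Aged 34, the lowest adjusted p of the mitotic kinesins was 0.0698 by edgeR. Without Aged+CF 30, 3 of the 11 were at unadjusted p (Kif18a, Kif20b and Kif23), and without Aged+CF 34, 4 were (Kif14, Kif15, Kif18a and Kif20b). Kif20b and Kif18a were at unadjusted p in each fit that left out 1 ovary. In the same comparison, 3 of 11 proliferation markers, 7 of 16 partners of mitotic kinesins and 4 of 12 oocyte markers were higher at a fold of 1.5 and unadjusted p (background 3.91%). So were 2 of 10 granulosa, 2 of 5 theca and 2 of 8 tested neuron markers. Lower were 3 of 8 immune, 1 of 7 luteal, 1 of 5 theca, 1 of 5 endothelial and 1 of 7 tested oviduct markers (background 4.05%). None of these was called at adjusted p by edgeR. The part of these genes and cell types in the kinesin values was not tested.

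Kif1a, a carrier of synaptic and dense-core vesicles, was the kinesin lower in Aged+CF vs Aged at unadjusted p and a fold of 1.5 by edgeR with all ovaries, and DESeq2 at unadjusted p also passed Kif26a (log2 fold change -1.25, adjusted p = 0.230). Kif1a was at 15.5, 12.7, 18.4 and 15.4 CPM in Control, 14.2, 21.8 and 19.0 CPM in Aged, and 9.98, 11.3 and 10.8 CPM in Aged+CF. The Aged+CF ovaries were below all others. The log2 fold change of Kif1a was -0.78 ± 0.19 (SE, unadjusted p = 0.00188, adjusted p = 0.161) in Aged+CF vs Aged and 0.24 ± 0.17 (SE, adjusted p = 0.377) in Aged vs Control. It was at unadjusted p in each fit that left out 1 ovary. The most abundant transport kinesins differed little, with log2 fold changes of -0.14 ± 0.10 for Kif5b, -0.05 ± 0.11 for Kif1c and -0.03 ± 0.13 for Kif3b (SE). Kif26a had a log2 fold change of -1.23 ± 0.65 (SE, adjusted p = 0.368) with all ovaries and -1.76 ± 0.30 (SE, adjusted p = 0.0251) without Aged 34.

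The third comparison set the old ovaries with CEFFE against the young ones. By edgeR at adjusted p, 0 kinesins were called lower (background 0.0422%) or higher (background 0.137%), and by DESeq2 at adjusted p Kif17 was lower (0.0302). At a fold of 1.5 and unadjusted p, 6 kinesins were lower (background 4.36%), namely Kif4, Kif15, Kif22, Kif23, Kif17 and Kif27. All 11 mitotic kinesins were lower in every Aged+CF ovary than in every Control ovary, a separation found in this direction for 12.2% of all genes. Their log2 fold changes ran from -0.89 (Kif4) to -0.31 (Kif18a), with a median of -0.72, beside 0.10 over the transport kinesins and -0.03 over all genes. The adjusted p-values of the mitotic kinesins were 0.297 to 0.632. Without Aged 34, which is in neither group, Kif23 had an adjusted p of 0.0378. Without both Control 33 and Aged 34, the lowest adjusted p of the mitotic kinesins was 0.0535 by edgeR. The mitotic kinesins of the Aged+CF group thus had means between those of the other groups, with no difference called at adjusted p by edgeR with all ovaries in the fit. With only the compared groups in the fit, Kif14, Kif18b and Kif23 were called lower in Aged+CF vs Control.

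Of the 6 motor genes outside the naming rule, 3 were called lower in Aged vs Control (background 6.06%) and 1 was called higher (background 5.0%). Cenpe, the kinetochore kinesin-7, was at 30.5, 37.3, 29.0 and 33.9 CPM in Control, 17.5, 9.88 and 4.58 CPM in Aged, and 25.7, 18.6 and 23.3 CPM in Aged+CF. It fell in Aged vs Control (log2 fold change -1.62, adjusted p = 0.0180), as did the minus-end motors Kifc1 (-1.46, 0.0496) and Kifc5b (-1.27, 0.0149), whose near-identical sequences may share reads. Kifc3, a minus-end motor of cell junctions, rose in the Aged group (log2 fold change 1.12, adjusted p = 0.0410), with 164 and 237 CPM in Aged 31 and 33 but 66.6 CPM in Aged 34, against 64.7 to 79.8 CPM in Control. Kifc2 and Stard9 had log2 fold changes of 0.01 and 0.09. In Aged+CF vs Aged, 0 of these 6 genes were called at adjusted p by edgeR, and 3 passed at unadjusted p (Cenpe and Kifc5b higher, Kifc3 lower). The background there was 3.91% higher and 4.05% lower.

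The proteins that work with mitotic kinesins were read from a list of 16 genes. In Aged vs Control, 13 of the 16 were called lower and none higher, with a median log2 fold change of -1.45. The largest fall was that of Kntc1, a kinetochore checkpoint protein (-2.09, adjusted p = 0.00969), and Prc1, which bundles the midzone microtubules that Kif4 and Kif14 bind, had -1.56 (adjusted p = 0.00772). Racgap1, the partner of Kif23 in centralspindlin, had -1.54 (adjusted p = 0.0166). The smallest difference was that of the microtubule polymerase Ckap5 (-0.46, adjusted p = 0.0111, under the fold limit). Of 15 kinesin light chains and cargo adaptors, Rhot1, the mitochondrial anchor of Kif5 motors, was called higher (log2 fold change 0.60, adjusted p = 0.0200) and Klc2 lower (-0.72, adjusted p = 0.0335). Of 21 genes of cytoplasmic dynein and dynactin, the motor of the opposite direction, Dynlt3 was called higher (0.80, adjusted p = 0.00764) and Dynlt1b lower (-0.82, adjusted p = 0.0212). Each is 1 gene of its list in each direction, near the background of 5.0% higher and 6.06% lower over all genes.

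Markers of cell types moved with the groups as well. Over all genes tested, 5.0% were called higher and 6.06% lower in Aged vs Control. Of 11 proliferation markers, 7 were called lower and none higher, and Mki67 was at 137 to 181 CPM in Control, 21.3 to 59.8 CPM in Aged and 71.5 to 111 CPM in Aged+CF. Of 12 oocyte markers, 10 were called lower, and their summed level was 355.4 to 481.2 CPM in Control, 13.45 to 102.2 CPM in Aged and 136.1 to 209.6 CPM in Aged+CF. Of 10 granulosa markers, Esr2 was called lower, and the summed level of the list was 4674 to 7689 CPM in Control, 3283 to 3924 CPM in Aged and 2520 to 4426 CPM in Aged+CF. All 7 luteal markers, 4 of 8 immune markers and 4 of 5 endothelial markers were called higher in Aged vs Control. Of the theca markers 2 of 5 and of the neuron markers 3 of 8 tested were called lower. No adipocyte marker of 5 and no oviduct marker of 7 tested was called by edgeR, at adjusted or unadjusted p. The part of these cell types in the lower mitotic kinesins was not tested.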

How the data were processed

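The groups of the 10 RNA-seq libraries were taken from the labels, which do not say whether each ovary came from a separate mouse, so the p-values measure the spread between these ovaries. Raw counts of reads and FPKM values were deposited by the authors. The submitters' processing notes name TopHat, Cufflinks 2.1.1 and the genome build GRCm38.p4, without their roles. The counting tool, annotation and strand setting were not given in the sources used here. The deposited FPKM were used for levels between genes, and the deposited counts for all tests. Gene positions are from GENCODE M21 on GRCm38, which holds 55141 of the 55487 identifiers and all 39 members. Pairs of libraries within a group differed by more than counting noise.

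The members and lists were chosen with earlier results of these data known, so agreement with those results is not independent evidence. Counts were analyzed with edgeR 4.0.16 in R 4.3.3 (filterByExpr, TMM scaling, quasi-likelihood F test over all 10 ovaries, Benjamini-Hochberg adjustment over the 18956 genes tested), and the fit was tested on simulated data. Calls needed a fold change of 1.5 and p under 0.05, adjusted or, in Aged+CF vs Aged, also unadjusted. Genes given per ovary were mitotic members of at least 1 CPM in a group, members called in either comparison with Control or passing at unadjusted p in Aged+CF vs Aged, and the 3 transport members highest in FPKM. Of the mitotic partners, the largest and smallest changes were named. The rule asked for them in every list, and the other lists are given by counts and called genes. Further genes, such as those that change without Aged 34, Kif26a, Prc1, Racgap1 and single markers, were chosen after their values were seen. Alternatives were DESeq2 size factors, the DESeq2 1.42.0 Wald test, no filter on low counts, only the compared groups, a replicate block, other thresholds and leaving out each ovary. The fit without Control 33 and Aged 34 was added after seeing the data.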

Additional observations from a re-analysis of the deposited data

Results flagged for a closer look

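In the Control group, the 36 kinesins tested and the sums of the 4 classes, 40 values in all, were examined for an ovary far from the other 3 by Dixon's ratio, by which chance marks about 1 in 20 groups. Control 33 stood apart with 8.47 CPM of Kif9 (ratio 0.868), 12 CPM of Kif19a (ratio 0.888) and 66.2 CPM of the summed cilium and centriole kinesins (ratio 0.891). In the same ovary the 10 oviduct and multiciliated cell markers summed to 425.3 CPM, against 13.09 to 20.46 CPM in the other Control ovaries, and their part in the kinesin values was not tested. The 3 values marked of 40 are near what chance gives at 1 in 20, and the marked sum contains Kif9 and Kif19a. No mitotic or transport kinesin was marked. Groups of 3 ovaries were too small to be examined.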

How the results depend on the processing

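The 14 kinesins called in Aged vs Control numbered 8 to 18 when each ovary was left out (8 without Control 32 and without Control 34, 18 without Aged 34), 11 when only the compared groups entered the fit (without Kif7, Kif18b and Kif24), and 15 without both Control 33 and Aged 34. The 9 kinesins at unadjusted p in Aged+CF vs Aged became 0 at adjusted p and 4 when only the compared groups entered the fit, and 4 to 12 when each ovary was left out (4 without Aged+CF 30, 5 without Aged+CF 34, 12 without Aged 34). The 0 called in Aged+CF vs Control became 6 at unadjusted p, 1 by the DESeq2 Wald test, 3 with only the compared groups and 0 to 1 when each ovary was left out (1 without Aged 34). With the replicate number as a block the counts were 0, 3 and 0. The labels do not say what a shared number means, and same-numbered ovaries did not deviate together (correlations from -0.185 to 0.153), so they were not taken as pairs. The median log2 fold change of the mitotic kinesins kept its sign under every alternative run (-1.86 to -1.20 in Aged vs Control, 0.60 to 1.15 in Aged+CF vs Aged, -0.79 to -0.55 in Aged+CF vs Control). Over the 18 genes given per ovary, 774 values under an alternative kept their side of the p threshold, 73 lost it and 17 gained it, with none reversed. That threshold was adjusted p under 0.05, or unadjusted p in Aged+CF vs Aged, and it left out the fold limit. The causes were not tested. Kinesins near 1 CPM, such as Kif6 and Kif28, rest on few reads.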
